A study of Mus musculus with 8 samples.

Results

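Immediate early genes are the first to be transcribed when a cell receives a growth factor, a stress or an injury, because the factors that switch them on are already present and need only be phosphorylated. Their mRNAs are short-lived, so their level reflects recent signalling in a tissue, and it is known to change during tissue handling as well. Here 10 such genes (Fos, Fosb, Jun, Junb, Egr1, Egr2, Atf3, Ier2, Dusp1 and Nr4a1) were followed, taken by symbol from the 24028 genes of the deposited tables. All 10 were found and all 10 passed the filter on low counts, which left 14575 genes tested.

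The tumours grew from TRAMP-C2 cells, an epithelial prostate adenocarcinoma line established from a mouse of the TRAMP transgenic model, after 1 M cells had been placed in the dorsolateral prostate of male C57BL/6 mice that were immunocompetent. The aged hosts were 20 to 24 months old (19 injected) and the young hosts 4 months old (20 injected), with harvest between day 30 and day 45. 4 tumours of each group were sequenced, each from a mouse with a number of its own, by which it is named here (aged 46, 47, 50 and 51, young 36, 37, 40 and 43). The comparison asks what an aged host changes in tumours of 1 line. The day of harvest, the time from death to lysis and any batch of the single tumours were not known here. All groups share 1 cell line, and host cells were not removed, so each value is a sum over injected and host cells. Less RNA per cell cannot be told apart from fewer cells of a type.

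The libraries held 27.1 to 35.7 M fragments, and the 10 genes had between 61 (Egr2 in aged 51) and 7493 (Junb in young 40) fragments each. Luminal keratin Krt8 was found in every tumour, at 21.5 CPM (aged 51) to 124 CPM (young 36). Epcam, an epithelial adhesion protein, stood at 0.70 CPM in young 43 and at 4.54 to 69.4 CPM in the other 7 tumours. Seminal vesicle secretory genes summed to 36946 CPM in young 36 and 21249 CPM in aged 50, against at most 17.1 CPM in the other 6. Prostate secretory markers summed to 11110 CPM in young 37, 4657 CPM in aged 50 and 1223 CPM in young 36, against 5.71 to 196 CPM in the rest. Skeletal muscle markers summed to 134 CPM in aged 51 and to 9.29 to 37.7 CPM in the rest. CPM are counts scaled to the same total in each tumour, as deposited.

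The 10 genes belong to several families. Fos, Fosb, Jun and Junb encode subunits of the dimeric transcription factor AP-1, and Atf3 encodes a related leucine zipper protein that pairs with Jun proteins and responds to stress. Egr1 and Egr2 encode zinc finger transcription factors, and Nr4a1 an orphan nuclear receptor. Dusp1 encodes a phosphatase that switches off JNK, p38 and ERK kinases, and it is induced by glucocorticoids as well as by stress. Ier2 encodes a small nuclear protein of the same early wave. Fos and Egr1 are textbook targets of serum response factor with its ETS-family partners, and Fos and Nr4a1 of the cyclic AMP response factor CREB.

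In GRCm38, RefSeq places the AP-1 genes and their partner as follows: Fos (Entrez 14281) at chr12:85473890-85477274, plus strand, Fosb (Entrez 14282) at chr7:19302696-19310118, minus strand, Jun (Entrez 16476) at chr4:95049036-95052222, minus strand, Junb (Entrez 16477) at chr8:84976909-84978748, minus strand and Atf3 (Entrez 11910) at chr1:191170296-191183333, minus strand. It places Egr2 (Entrez 13654) at chr10:67534469-67542188, plus strand, and Nr4a1 (Entrez 15370) at chr15:101253902-101274795, plus strand. It places Ier2 (Entrez 15936) at chr8:84661331-84662852, minus strand, and Dusp1 (Entrez 19252) at chr17:26505591-26508472, minus strand. Egr1 has Entrez number 13653.

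The bases before the start site are shown for 5 genes, chosen after their patterns across the tumours were seen. Those patterns were Fos with Nr4a1, Jun with Junb, and Dusp1 apart from both. Whether the sequences bear on the patterns was not tested. Each sequence is the 250 bases upstream of a transcript start in RefSeq (GRCm38.p6), read in the direction of the gene. For Nr4a1 that start is an alternative one inside the gene span given above, and for the other 4 it is the start of the span. Capitals mark TGACG, the core of the cyclic AMP response element, and TGANNTCA, the 8-base form of the AP-1 and CREB site, on either strand.
Fos, chr12:85473640-85473889, plus strand: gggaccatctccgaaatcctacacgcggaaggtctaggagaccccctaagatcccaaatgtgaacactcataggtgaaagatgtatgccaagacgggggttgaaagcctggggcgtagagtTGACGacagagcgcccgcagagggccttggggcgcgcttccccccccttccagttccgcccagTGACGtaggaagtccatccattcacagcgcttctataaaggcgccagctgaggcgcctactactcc
Nr4a1, chr15:101266596-101266845, plus strand: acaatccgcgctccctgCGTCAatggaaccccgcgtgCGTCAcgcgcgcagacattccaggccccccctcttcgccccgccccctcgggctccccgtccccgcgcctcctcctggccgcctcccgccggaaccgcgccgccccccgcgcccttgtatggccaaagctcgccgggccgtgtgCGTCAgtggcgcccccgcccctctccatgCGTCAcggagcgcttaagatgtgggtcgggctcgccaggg
Jun, chr4:95052223-95052472, minus strand: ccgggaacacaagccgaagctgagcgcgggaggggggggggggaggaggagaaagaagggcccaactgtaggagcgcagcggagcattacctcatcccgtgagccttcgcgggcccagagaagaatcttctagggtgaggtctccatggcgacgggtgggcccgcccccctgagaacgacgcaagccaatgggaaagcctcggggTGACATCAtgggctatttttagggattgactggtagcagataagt
Junb, chr8:84978749-84978998, minus strand: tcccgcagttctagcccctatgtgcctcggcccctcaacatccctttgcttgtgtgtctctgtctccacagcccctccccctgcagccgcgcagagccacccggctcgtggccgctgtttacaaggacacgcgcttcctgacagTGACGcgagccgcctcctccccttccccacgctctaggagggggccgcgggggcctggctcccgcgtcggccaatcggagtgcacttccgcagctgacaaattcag
Dusp1, chr17:26508473-26508722, minus strand: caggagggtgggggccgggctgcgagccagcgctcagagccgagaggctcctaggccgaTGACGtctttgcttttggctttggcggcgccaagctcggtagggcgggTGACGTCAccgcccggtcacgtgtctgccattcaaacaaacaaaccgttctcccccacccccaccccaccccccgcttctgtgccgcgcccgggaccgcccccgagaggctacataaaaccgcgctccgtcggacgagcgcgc

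Fos held 2 TGACG matches, which began 129 and 66 bases before the start, and a TATAAA box 33 bases before it. Nr4a1 held 4 such matches, Junb held 1, and Dusp1 held 3. The Dusp1 sites at 143 and 140 bases before the start overlap as 1 palindrome, TGACGTCA, read on opposite strands. Jun held no TGACG but a TGANNTCA match 45 bases before the start. Of 32851 windows of this length in the table (several per gene for some genes), 17.8% held TGACG, 1.55% TGACGTCA and 11.9% TGANNTCA, of which TGACGTCA is a special case. No CArG box, the binding motif of serum response factor, was matched in these windows or in the 1 window searched of each of Fosb, Egr2 and Atf3 (those of Fosb and Egr2 overlap their gene spans, and Egr2 has 4 further windows that were not searched), and 1.47% of all windows held one. Egr1 and Ier2 were not analysed in this way. Bases outside the searched windows were not examined, so a CArG box farther upstream would have been missed. Whether Fos or the other searched genes lack a CArG box was therefore not tested.

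Per length of transcript, Junb was the most abundant of the 10 genes, with 85.9 ± 32.1 FPKM (SD, n = 8 tumours), followed by Ier2 with 39.0 ± 8.38 FPKM. Junb exceeded Ier2 in 8 of 8 tumours and Ier2 exceeded Egr1 in 8 of 8. Egr1 (19.4 ± 7.35 FPKM) and Jun (18.2 ± 3.77 FPKM) did not differ beyond their spread, and Egr1 was the higher in 3 of 8 tumours. Nr4a1 (14.1 ± 5.16), Dusp1 (13.7 ± 9.77), Atf3 (10.05 ± 3.36) and Fos (9.34 ± 4.16 FPKM) overlapped each other too. Fos exceeded Egr2 (2.07 ± 1.08 FPKM) in 8 of 8 tumours, and Egr2 exceeded Fosb (1.14 ± 0.357 FPKM) in 7 of 8.

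**Figure D1:**
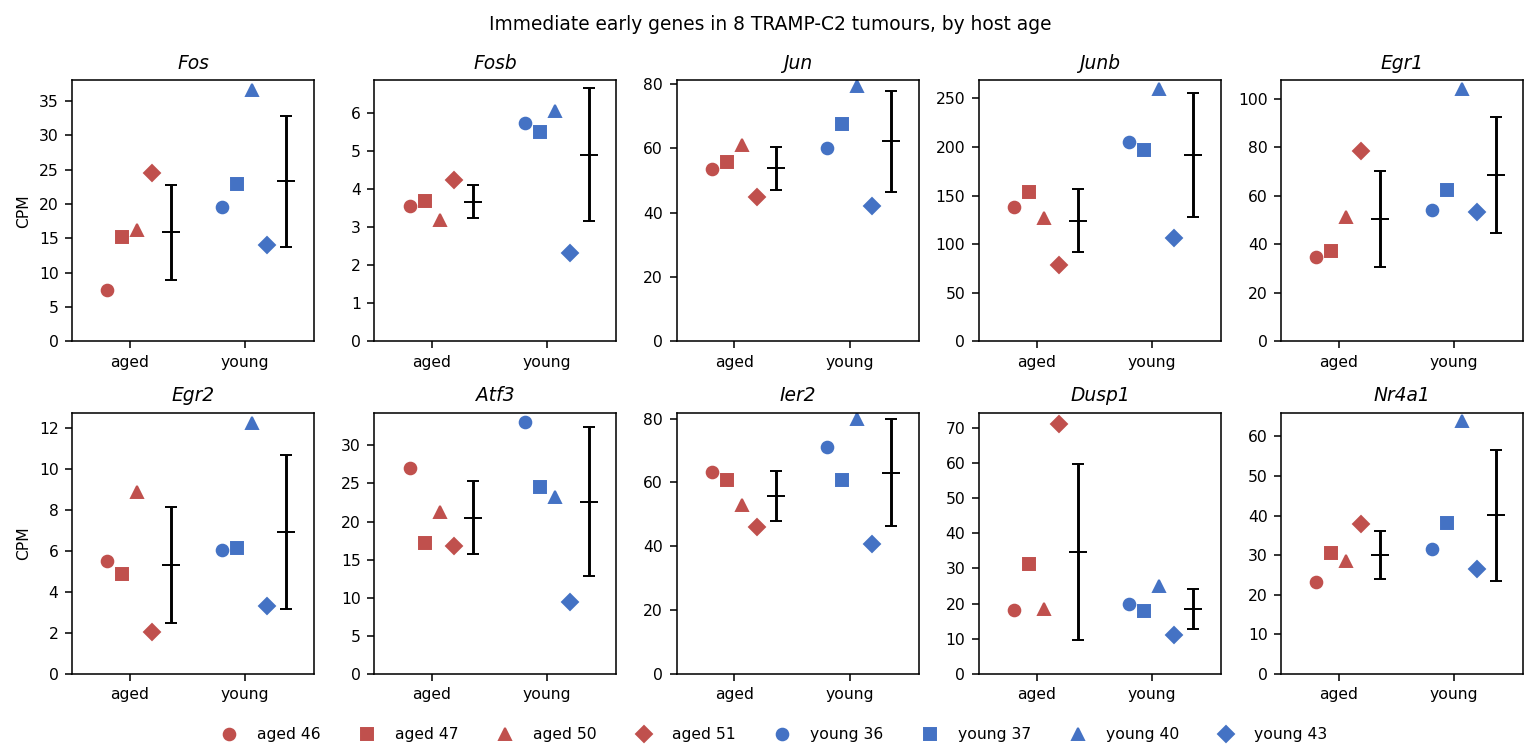
CPM of each gene (vertical axes, each from 0) in the 4 aged and 4 young tumours, 1 symbol per tumour, with the group mean and SD in black. Young 40 is the highest tumour for 8 of 10 genes, and the groups overlap for all 10.

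Among the AP-1 subunits, Junb stood at 138, 154, 127 and 78.6 CPM in aged 46, 47, 50 and 51, and at 205, 196, 259.7 and 106 CPM in young 36, 37, 40 and 43. The 3 highest values were thus those of young tumours, while young 43 lay below 3 of the 4 aged ones. Fosb showed the same arrangement, at 3.56, 3.71, 3.20 and 4.24 CPM in the aged and 5.75, 5.51, 6.06 and 2.32 CPM in the young tumours. Young 43 was the lowest of all 8 for Fosb, and the other 3 young tumours were the highest 3. Fos, the partner of Jun in the classical AP-1 dimer, stood at 7.43, 15.2, 16.3 and 24.5 CPM in the aged and 19.6, 22.9, 36.6 and 14.1 CPM in the young tumours. Here aged 46 was lowest, and aged 51, low for Junb, was second only to young 40. Jun varied less, from 42.0 CPM (young 43) to 79.3 CPM (young 40), and Atf3 ranged from 9.46 CPM (young 43) to 33.1 CPM (young 36).

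Egr1 followed Fos closely, at 34.8, 37.4, 51.1 and 78.4 CPM in aged 46, 47, 50 and 51 and 54.3, 62.4, 103.9 and 53.3 CPM in young 36, 37, 40 and 43. Aged 51 and young 40 were again the 2 highest tumours. Nr4a1 gave 23.1, 30.6, 28.5 and 37.8 CPM in the aged and 31.6, 38.2, 63.9 and 26.5 CPM in the young tumours, so that young 40 stood well above the other 7. Egr2, which belongs to the same family as Egr1, went the other way in aged 51. It stood at 5.51, 4.85, 8.89 and 2.02 CPM in the aged tumours, where aged 51 was the lowest, and at 6.03, 6.14, 12.2 and 3.33 CPM in the young.

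Ier2 had the narrow range of Jun, from 40.7 CPM (young 43) to 79.7 CPM (young 40). Dusp1 had the widest range of the 10 genes, 6.38-fold between the highest and the lowest tumour. It stood at 18.1, 31.1, 18.3 and 71.2 CPM in the aged and 19.8, 17.7, 25.1 and 11.2 CPM in the young tumours, and aged 51 was more than any other tumour by a wide margin. Between tumours the SD of log2 CPM was 0.28 (Jun) to 0.80 (Dusp1), with a median of 0.53 over the 10 genes against 0.30 over all genes tested.

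By tumour rather than by gene, young 40 and young 43 formed the extremes although both came from young hosts. Young 40 had the highest CPM for 8 of 10 genes (not Atf3 and Dusp1), while 8.86% of all tested genes were highest there. Young 43 had the lowest for 5 of 10 (Fosb, Jun, Atf3, Ier2 and Dusp1), against 14.8% of all tested genes. Aged 46 was lowest for Fos, Egr1 and Nr4a1 (3 of 10, against 23.5% of tested genes), and aged 51 for Junb and Egr2 (2 of 10, against 24.4%), both near these shares. After each gene was centred on its own mean over the 8 tumours, the mean of the 10 genes was 0.61 in young 40 and -0.60 in young 43 on the log2 scale. It was 0.25 in young 36, 0.19 in young 37, 0.02 in aged 51 and -0.19 to -0.13 in the other 3 aged tumours. In aged 51 that mean hid the widest spread, from -1.33 (Egr2) to 1.71 (Dusp1), and the CPM ratio of Fos to Junb was 0.311 there against 0.0538 to 0.141 in the other 7.

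**Figure D2:**
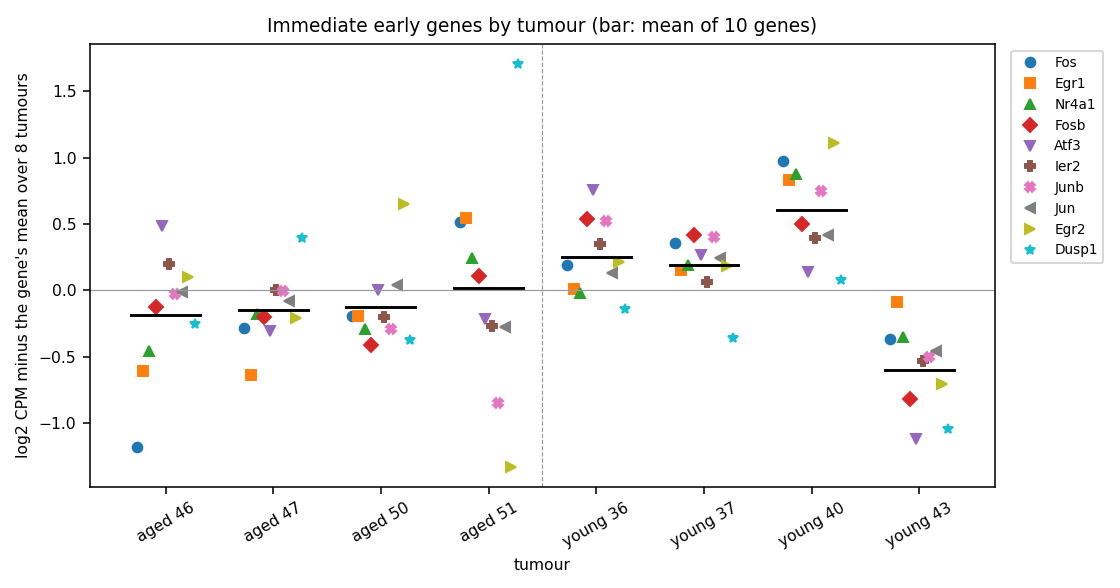
Log2 CPM of each gene minus its own mean over 8 tumours (vertical axis) for each tumour (horizontal axis), with a bar at the mean of the 10 genes and a dashed line between aged and young hosts. All 10 genes lie above 0 in young 40 and below 0 in young 43, while aged 51 spreads from -1.33 to 1.71.

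Fibroblast markers (8 of 8 tested, none at 0) summed to 7761 CPM in aged 46 and 24986 CPM in young 40, the lowest and the highest tumour for them. The sums were 7761 to 17941 CPM in aged and 13869.9 to 24986 CPM in young tumours. Of the 8 fibroblast markers, 7 were lower and 1 higher in aged tumours, with a median log2 fold change of -0.46. None passed edgeR's threshold, and DESeq2 called 1 (0.297% of all genes). Epithelial markers (8 of 8 tested, none at 0) summed to 53.2 CPM in young 43, the lowest value, within 74.5 to 702 CPM in aged and 53.2 to 304 CPM in young tumours. Macrophage markers (7 of 7 tested, none at 0, 6 lower in aged tumours, 0 past edgeR's threshold) had their lowest mean log2 CPM in aged 46 (7.57), aged 51 (7.93) and young 43 (7.95). They stood at 8.48 to 8.52 in young 36, 37 and 40, and at 8.42 in aged 47 and 8.19 in aged 50. Their sums were 2504 to 4932 CPM in aged and 3088 to 4979.9 CPM in young tumours. The part of these cell types in the pattern was not tested.

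Many of the 10 genes rose and fell together from tumour to tumour. Of their 45 pairs, 14 (31.1%) had a Pearson r of log2 CPM of at least 0.7 over the 8 tumours, against 7.63% of all pairs of tested genes. Their median r was 0.45, and that over all pairs was 0.00 (to 2 decimals). After centring within each host group, 17 pairs reached 0.7 and the median was 0.55, against 9.83% of all pairs. The genes were chosen as a known co-induced set, and these shares are a description. Without young 43 the count fell to 9 pairs, and without aged 51 it was 18. Within single host groups (4 tumours each), all pairs had a positive r in young tumours, but many were negative in aged ones. Fos with Jun had r = -0.71 in aged and 0.94 in young tumours, and Fosb with Jun -0.90 and 0.94. Other pairs were positive in both, such as Fos with Nr4a1 (0.92 and 0.99) and Jun with Junb (0.77 and 0.98). This difference between host groups was not tested.

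Exact two-sided permutation tests of the 45 correlations (40320 assignments) gave 14 pairs with an unadjusted p under 0.05. Of these, 7 passed Benjamini-Hochberg adjustment over the 45 pairs. The share of all pairs of tested genes past these cuts was not computed. At an r of at least 0.7 it was 7.63%, beside 31.1% of the 45 pairs. Fos and Nr4a1 had the highest r, 0.91 (exact p = 0.0020, adjusted p = 0.031). Their Spearman rho was 0.98 (exact p = 0.00040, adjusted p = 0.018), and r was 0.97 without the 2 tumours farthest from the median of Fos (aged 46 and young 40). Fos with Egr1 had r = 0.90 and Egr1 with Nr4a1 r = 0.88 (adjusted exact permutation p = 0.031 for both). With rank correlation these gave rho = 0.88 and 0.83 (adjusted exact permutation p = 0.081 and 0.099), and r was 0.83 and 0.90 without the 2 farthest tumours.

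The other pairs that passed joined Jun, Junb, Ier2 and Atf3. Jun with Junb had r = 0.88, Junb with Ier2 0.87, Jun with Ier2 0.85 and Atf3 with Ier2 0.84 (adjusted exact permutation p = 0.049 for all 4). Their rho values were 0.86, 0.90, 0.83 and 0.79, with adjusted exact permutation p-values of 0.096, 0.081, 0.099 and 0.14. Without the 2 farthest tumours r was 0.88, 0.86, 0.59 and 0.58. Young 43 was among those left out for Jun with Junb, which kept its r, as well as for Jun with Ier2 and Atf3 with Ier2. By rank correlation only Fos with Nr4a1 passed. With 7 tumours the number of pairs that passed was 6 without aged 50 or aged 51, 2 without aged 47, 1 without aged 46 or young 40, and 0 without young 36, young 37 or young 43.

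Laid out as a matrix, the correlations showed a group of 3 genes and a group of 6, sets chosen after their values were seen and therefore not tested. Within Fos, Egr1 and Nr4a1, r was 0.88 to 0.91, and its lowest value in any set of 7 tumours was 0.80. Within Fosb, Jun, Junb, Egr2, Atf3 and Ier2 it was 0.37 to 0.88 with a median of 0.78, which went to 0.64 without young 43. Between the groups the median was 0.32, with a range of 0.02 to 0.71. Without aged 51, the tumour high for Fos and Egr1 but low for Junb and Egr2, the gap was narrower, with medians of 0.89 and 0.83 within the groups and 0.61 between them. Without young 40 the median between them was 0.00. After centring within host group the medians were 0.87 and 0.80 within and 0.21 between.

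Dusp1 stood apart from both groups, with r from -0.44 (Egr2) to 0.39 (Fos) and a median of 0.11 over its 9 pairs. Without aged 51 that median was 0.48, with Ier2 at 0.70. Without young 43 it was -0.49. After centring within host group the median was 0.18, with Dusp1 at r = 0.80 with Fos, 0.75 with Egr1 and with Nr4a1, -0.05 with Junb and -0.36 with Egr2.

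**Figure D3:**
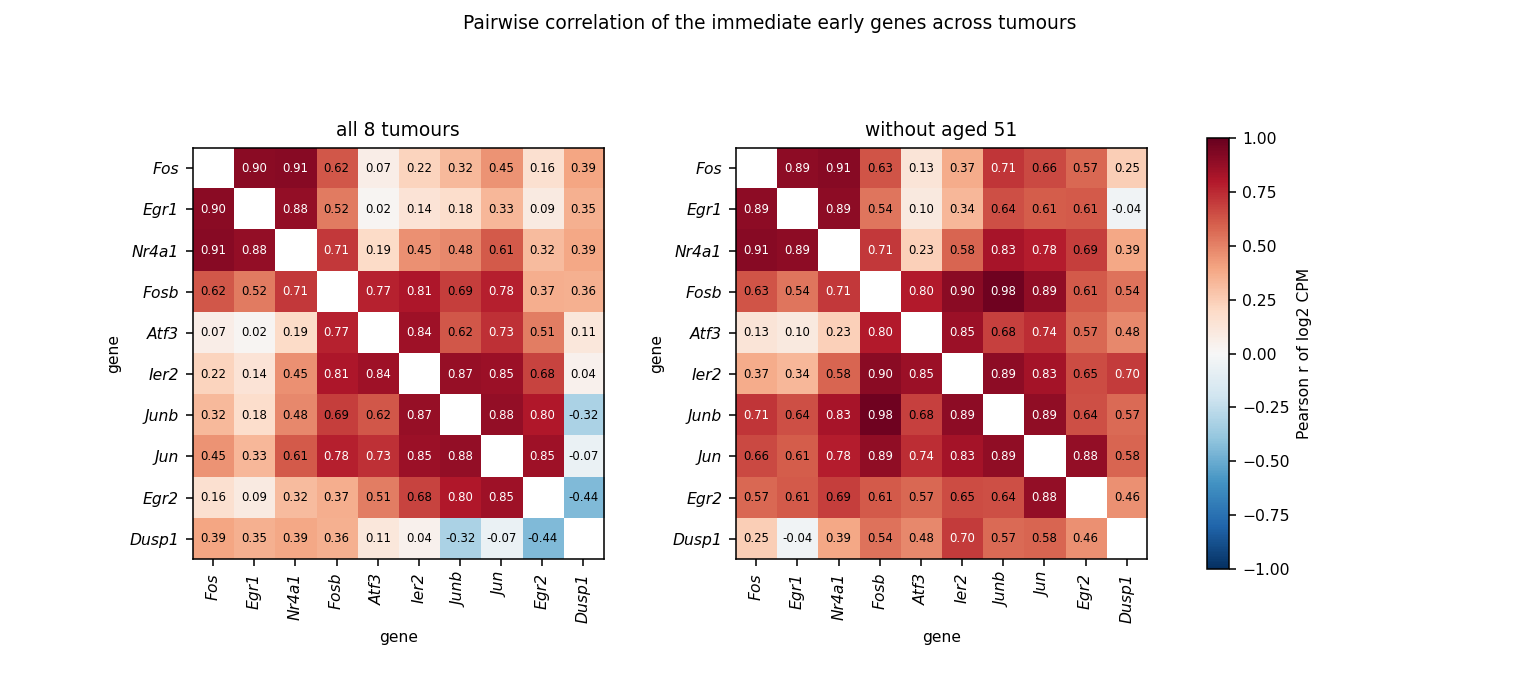
Pearson r of log2 CPM for each pair of the 10 genes (rows and columns), over 8 tumours at the left and without aged 51 at the right, on a colour scale from -1 to 1. The block of Fos, Egr1 and Nr4a1 is at 0.88 or more in both. The median of the cells between it and Fosb, Jun, Junb, Egr2, Atf3 and Ier2 goes from 0.32 to 0.61 without aged 51. The median r of Dusp1 over its 9 pairs goes from 0.11 to 0.48, although its r with Fos and Egr1 goes from 0.39 and 0.35 to 0.25 and -0.04.

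Between host ages, 9 of the 10 genes had lower values in aged tumours and Dusp1 a higher one, but none passed the test. Counts were compared with edgeR's quasi-likelihood test, which called 0 of 14575 genes (0%) at a Benjamini-Hochberg adjusted p of 0.05, while 728 (4.99%) had an unadjusted p under 0.05. For the 10 genes the adjusted p by edgeR was 0.92 to 0.96, and 0 had an unadjusted p under 0.05. DESeq2 called 43 genes (0.297%) and limma voom 0 (0%), none of the 10 among them. By deposited CPM the groups did not overlap for 3.4% of all tested genes (1.95% lower and 1.45% higher in aged tumours) and for 0 of these 10. The median log2 fold change of the 10 was -0.39, aged minus young, beside 0.03 over all genes, of which 44.7% were below 0.

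The means of Junb were 124 ± 32.4 CPM (aged) and 192 ± 63.7 CPM (young, SD, n = 4 per group), and its log2 fold change was -0.62 ± 0.28 (SE, unadjusted p = 0.053 by edgeR). Without young 43, left out after its value was seen, the log2 fold change of Junb was -0.82 ± 0.21 (adjusted p = 0.91 by edgeR). Fos had 15.9 ± 6.96 and 23.3 ± 9.58 CPM, or -0.53 ± 0.37, a difference smaller than 2 of its SE. Egr1 had -0.41 ± 0.31, Fosb -0.40 ± 0.33, Nr4a1 -0.40 ± 0.27 and Egr2 -0.38 ± 0.48. Jun (-0.20 ± 0.18), Ier2 (-0.17 ± 0.21) and Atf3 (-0.13 ± 0.35) lay nearest to 0.

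Dusp1 averaged 34.7 ± 25.1 CPM (aged) and 18.5 ± 5.76 CPM (young), a log2 fold change of 0.94 ± 0.47 (unadjusted p = 0.075 by edgeR). This difference came down to 0.27 ± 0.29 without aged 51. Without young 40 the median log2 fold change of the 10 genes was -0.12. Fos then had -0.26, Egr1 -0.17, Nr4a1 -0.10, Jun -0.08, Ier2 -0.06 and Egr2 0.016. Junb (-0.46), Fosb (-0.31), Atf3 (-0.13) and Dusp1 (1.10) moved by less than 1.5 times. Without aged 51, Fos had -0.86 and Egr1 -0.74. The exons of Junb, Jun and Dusp1 overlap those of Prdx2, Junos and Ergic1 on the opposite strand (GENCODE vM21), and as the strand setting of the counting is not known, their values may hold reads of these neighbours.

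**Figure D4:**
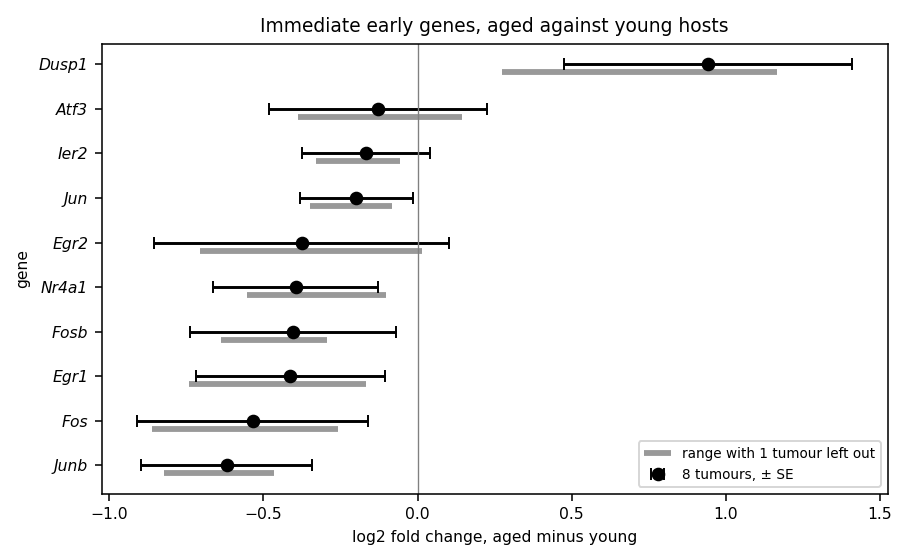
Log2 fold change of each gene, aged minus young (horizontal axis), with its SE from edgeR, and in grey the range when 1 tumour is left out. 9 genes lie below 0 and Dusp1 at 0.94, and the range of Dusp1 reaches down to 0.27, that of Egr2 up to 0.016 and that of Atf3 up to 0.14.

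Among relatives of the 10 genes, the other AP-1 family did not move as a block. Of 10 other AP-1 family genes, 5 had higher and 5 lower values in aged tumours, with 0 past edgeR's threshold and a median log2 fold change of -0.02. Fosl2, a Fos-related subunit, averaged 89.8 ± 16.8 CPM (aged) and 121 ± 18.6 CPM (young, -0.42 ± 0.16), and Mafk, a small Maf protein, 0.33 ± 0.16 (0.17 ± 0.10 without aged 51). Fosl1 (-0.32 ± 0.29) and Jund (0.12 ± 0.31) lay within 2 SE of 0. Fosl2 and Mafk, named for the smallest p of this list, had an adjusted p of 0.92 by edgeR, as Fosl1 had. The groups overlapped for all 10 genes of the list.

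A list of EGR and NR4A relatives held Egr3, Nr4a2 and Nr4a3, and also Nab1 and Nab2, which are not members of these families. Of these 5 tested genes, 4 were lower in aged tumours, with a median of -0.64 and 0 past edgeR's threshold. The mean log2 CPM of these genes was 3.21 to 3.90 in aged and 4.03 to 4.29 in young tumours. Nab2, a corepressor that binds EGR proteins and is itself an EGR target, stood at 68.4, 71.9, 62.2 and 38.9 CPM in the aged and 107, 99.5, 94.5 and 129 CPM in the young tumours. Here the groups did not overlap, and young 43, low for most of the 10 genes, was the highest tumour. Its log2 fold change was -0.83 ± 0.19, with an adjusted p of 0.83 by edgeR and 0.031 by DESeq2. Nr4a2, the closest relative of Nr4a1, had 11.4 ± 2.35 and 18.1 ± 2.25 CPM (-0.64 ± 0.18), again without overlap and with young 43 highest. Egr3 had -0.80 ± 0.38, Nab1 -0.08 ± 0.12 and Nr4a3 0.09 ± 0.68. The groups did not overlap for 2 of the 5 genes, against 3.4% of all tested genes.

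Of 39 tested early response genes of other families, 22 were higher and 17 lower in aged tumours, with a median of 0.06 and 0 past edgeR's threshold. Ctgf, a secreted matricellular factor, had a log2 fold change of 1.24 ± 0.40, with aged 51 at 242 CPM and the other 7 tumours at 42.2 to 125 CPM. Without aged 51 it was 0.70 ± 0.26. Cebpb, a leucine zipper factor of inflammation, had -0.49 ± 0.16. ERK feedback and delayed ERK targets, which follow the early wave, had a median of -0.09 (5 higher, 9 lower of 14, 0 past edgeR's threshold). Among them Spry1, an inhibitor of receptor tyrosine kinase signalling, had -0.91 ± 0.29 and the IL-33 receptor gene Il1rl1 -1.36 ± 0.43, both without overlap. They are named for the smallest p of this list, and the adjusted p was 0.92 by edgeR for both. The groups did not overlap for 2 of the 14 genes, against 3.4% of all tested genes. The kinases and transcription factors of the RAS, ERK, JNK and p38 pathways were evenly divided (13 higher, 13 lower of 26, 0 past edgeR's threshold, median -0.01). Egfr, the epidermal growth factor receptor, had -0.46 ± 0.20 (-0.26 without young 43) and Crem, a cyclic AMP response modulator, -0.45 ± 0.20.

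Heat shock genes, which respond to stress during life and to tissue handling, had a median log2 fold change of -0.08 (5 higher, 8 lower of 13, 0 past edgeR's threshold). Their order over the tumours depended on the scale. The mean log2 CPM was lowest in young 43, at 6.67, and highest in young 36 (7.52) and young 37 (7.44). Summed CPM, led by the abundant Hsp90ab1 and Hspa8, was 9639 in young 43, the second highest after aged 46 (11222), and the remaining 6 tumours had 6830.4 to 9455. Of the 13 genes, 4 were lowest in young 43 (Hspa1a, Hspa1b, Hspb1 and Dnajb4), and Hspd1 was highest there. In mean log2 CPM, young 40, the tumour highest for 8 of the 10 genes, stood at 7.23, and the aged tumours at 6.89 to 7.14. Hspa1a, the inducible HSP70 gene, stood at 3.59, 5.84, 10.46 and 2.58 CPM in the aged and 20.5, 21.8, 12.4 and 1.79 CPM in the young tumours. Its copy Hspa1b is nearly identical, so reads may have been split between them, and it too was lowest in young 43, at 3.33 CPM. Hsph1, a cofactor of HSP70, had 71.0 ± 27.5 and 131 ± 18.1 CPM (-0.86 ± 0.26), with young 43 at 107 CPM. The part of handling in the pattern of the 10 genes was not tested.

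The mean over 9 glucocorticoid-induced genes was highest in aged 51, as Dusp1 was, but single genes differed. Tsc22d3, Fkbp5, Per1, Zbtb16 and Klf9 (5 of 9) peaked in aged 51, as did 18.8% of all tested genes. Sgk1 peaked in aged 50, Ddit4 in aged 46, Errfi1 in young 40 and Cebpd in young 37. The mean log2 CPM of the list was 6.73 in aged 51. It was 5.80 in aged 47, which was second for Dusp1 too, and 5.05 to 5.61 in the other 6 tumours. Tsc22d3, a glucocorticoid-induced leucine zipper protein, stood at 50.5, 91.6, 52.5 and 247 CPM in aged 46, 47, 50 and 51 and at 35.9 to 41.4 CPM in the young tumours, a log2 fold change of 1.55 ± 0.50. Klf9, a zinc finger factor, had 1.03 ± 0.30. Without aged 51 these were 0.73 ± 0.21 and 0.67 ± 0.19. In all, 8 of 9 genes of this list were higher in aged tumours, with a median of 0.77 and 0 past edgeR's threshold. Aged 51 was also the tumour with the most skeletal muscle and adipocyte transcripts (134 CPM for the 6 muscle markers, none at 0 there, and 494 CPM for the 5 adipocyte markers). Muscle markers summed to 9.29 to 134 CPM in aged and 10.8 to 37.7 CPM in young tumours, and Myh4 was at 0 in 5 of the 8 (Myh1 in 3 and Ckm in 1). Adipocyte markers summed to 42.6 to 494 CPM in aged and 32.6 to 210.1 CPM in young tumours, with Lep at 0 in young 36. Of the 2 tested nuclear-retained RNAs, which bear on RNA quality, Neat1 stood at 11.2 CPM in aged 51 and 65.2 to 153 CPM in the other 7 tumours, and Malat1 at 52.5 CPM in aged 51 and 31.3 to 64.7 CPM in the others. The part of these transcripts in the level of Dusp1 was not tested.

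**Figure D5:**
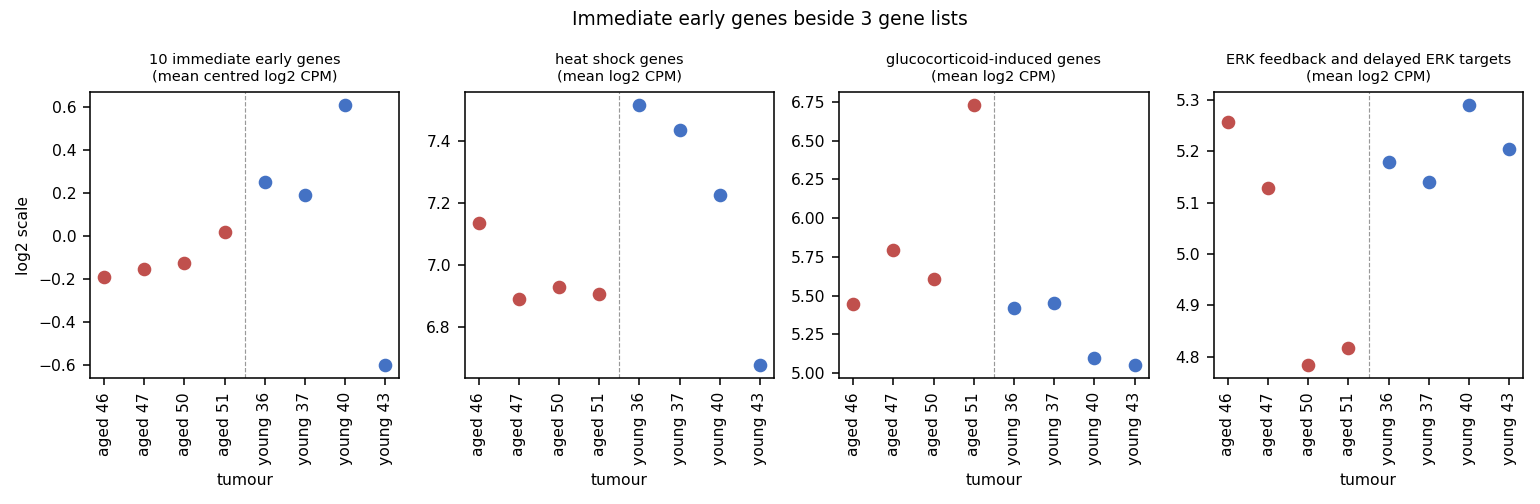
Mean over the 10 genes (log2 CPM centred on each gene's mean) and mean log2 CPM of 3 gene lists (vertical axes, each with its own range) in each tumour (horizontal axes), aged in red and young in blue. Young 43 has the lowest mean of the 10 genes and the lowest mean log2 CPM of the heat shock genes (though not their lowest summed CPM), and aged 51 is highest for the glucocorticoid-induced genes, at 6.73.

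The genes whose pattern over the 8 tumours was most like that of the 10 were sought among 11223 others whose average log2 CPM was 2 or more, predicted gene models left out. The measure was Pearson r with the mean z-score of the 10 genes, and 6 of them (0.0535%) reached 0.9. Gem, a small GTPase, was the nearest, with r = 0.98 and 0.98 to 0.99 when 1 tumour was left out, ranging from 3.499 CPM (young 43) to 11.99 CPM (young 40). Mitf, a transcription factor of the basic helix-loop-helix leucine zipper family, followed with 0.95, then Zfp518b with 0.93 and Derl1, a factor of protein export from the endoplasmic reticulum, with 0.92. Ptgs2, the inducible cyclooxygenase and an early response gene, had 0.91, from 20.6 CPM (young 43) to 68.8 CPM (young 40). Derl2 (0.90), Ppt2 (0.90) and Ecm1 (0.89) completed the 8. In all 8 genes young 40 was the highest tumour, and in all but Ppt2 young 43 was the lowest, which the measure favours.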

How the data were processed

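RNA of 8 tumours was sequenced as paired reads of 50 bp from TruSeq mRNA libraries (the stranded kit, per the series text) made with 1 µg of RNA, per the labels' protocols. Picard 2.7.1, TopHat2 2.0.12, bcl2fastq and the build GRCm38 are listed per the submitters' processing notes. Which program, annotation and strand setting gave the counts was not stated in the sources available. Each deposited table lists, per the file headers, the fragment count of each Entrez gene. The authors also deposited FPM, which is CPM here since it sums to the same total (1 M) in every tumour, and FPKM, which equals that CPM per kb of the listed transcript length. 27 symbols that had become dates were restored by Entrez number from RefSeq (GRCm38.p6), and 5 were missing.

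The fragment counts as deposited entered edgeR 4.0.16 (R 4.3.3, filterByExpr with minimum count 10 and minimum total 15, TMM, robust quasi-likelihood fit, host age as the only term), with Benjamini-Hochberg adjustment over all 14575 genes tested and a threshold of 0.05. SE is the fold change over the root of F. Correlations used log2 CPM with TMM factors and a prior count of 2. CPM printed per tumour are the deposited values. At this depth 3 fragments are 0.084 to 0.111 CPM, which covers counting error only. No pair of libraries was a copy (lowest chi-square per degree of freedom 45.6). Nothing in the labels names pools, and each tumour has its own mouse number.

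The genes and lists were chosen with earlier results of these data known. Named genes are the 10, the 2 genes with the smallest p of each other list that holds no cell type markers, and the 8 genes most like the 10. Fosl1, Jund, Egr3, Nab1, Nr4a3, Arc, Ier5l and Klf6 are outside that rule. So are markers and further genes of the heat shock and glucocorticoid lists. All of these are named after their values were seen. Alternatives were RLE and library size scaling, DESeq2 1.42.0, limma 3.58.1 (voom), no filter, other prior counts, rank correlation and tumours left out. The count of pairs past the threshold under these alternatives was added after seeing the data. Procedures were tested on simulated data.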

Additional observations from a re-analysis of the deposited data

Results flagged for a closer look

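Fosb in young 43 stood at 2.32 CPM, while the other young tumours lay at 5.51 to 6.06 CPM, so its gap to the nearest of them was 0.851 of the range of the group, above Dixon's critical value at the 95% level for 4 samples. Of the 20 sets of 4 values examined (10 genes in each host group), this was the only such value, and chance gives about 1 in 20. Without young 43 the log2 fold change of Fosb was -0.64 ± 0.24 in place of -0.40 ± 0.33, with an adjusted p of 0.91 by edgeR.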

How the results depend on the processing

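The median log2 fold change of the 10 genes stayed below 0 under all 15 alternatives run, from -0.53 (without young 43) to -0.12 (without young 40), and 7 to 9 of the 10 genes were lower. The median pairwise r was 0.37 (without young 40) to 0.69 (without aged 50, aged 51 and young 36). The count of genes called between host ages was 0 by edgeR under every scaling, filter and left-out tumour, 0 by limma voom (684 at an unadjusted p under 0.05) and 43 by DESeq2. With edgeR 533 to 1139 genes had an unadjusted p under 0.05. The count of pairs past an adjusted exact p of 0.05, 7 of 45, was 1 with Spearman's rho, 0 without aged 50 and young 36, and 0 to 6 with 1 tumour left out, where fewer tumours allow fewer assignments. Directions turned for 3 of the 10 genes. Atf3 (-0.13) went to 0.019 with limma voom, to 0.15 without aged 50 and young 36, to 0.26 without aged 51 as well, and ran from -0.39 to 0.14 with 1 tumour left out. Egr2 (-0.38) ran from -0.71 to 0.016 and Ier2 (-0.17) went to 0.082 without aged 50, aged 51 and young 36. The cause was not tested. Nab2 passed with DESeq2 (-0.82), and it was past the threshold in no other alternative. No paired analysis was possible because the host groups share no mouse number. Depth was 27.1 to 35.7 M fragments, so counting error is small for all 10 genes beside the spread between tumours.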

Other observations

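Egr4, a relative of Egr1, was at 0 in 6 of 8 tumours and at most 0.037 CPM, and Npas4, a factor induced by neuronal activity, was at most 0.104 CPM and at 0 in 3 tumours. These values are at or below the level of 3 fragments (0.084 to 0.111 CPM), so neither gene was distinguishable from 0 at this depth. Arc, another early gene induced by neuronal activity, was present in all 8 tumours, at 1.12 to 3.03 CPM in the aged and 3.50 to 5.88 CPM in the young, without overlap (log2 fold change -0.96 ± 0.35, adjusted p = 0.92 by edgeR). Arc was chosen after its values were seen. Of the 39 tested early response genes of other families, 2 were lower without overlap (Arc and Ier5l) and 1 was higher (Klf6). Of all tested genes, 1.95% were lower and 1.45% higher without overlap. Nr4a3, a relative of Nr4a1, stood at 5.39 CPM in aged 50 and at 0.712 to 2.63 CPM in the other 7 tumours, a tumour that was not extreme for any of the 10 genes.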
